A study of Mus musculus with 15 samples.

Results

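The genes described here encode the enzymes that cut extracellular matrix outside the cell and the inhibitors that hold those enzymes in check. They were chosen by symbol alone, as the protein-coding genes whose name starts with Mmp, Adamts or Timp and a digit, and the naming rule uses no measured value. There were 45 of them among the 46078 genes of the count table: 22 matrix metalloproteases, 19 ADAMTS proteases and 4 tissue inhibitors of metalloproteases. Mmp1a met the naming rule but is annotated as a polymorphic pseudogene and was left out. RNA was sequenced in bulk from the podocyte fraction of male C57BL/6J mice, that is, from cells of digested cortex that were caught on magnetic beads through antibodies to nephrin, a podocyte surface protein. Young mice were 4 months old and received no injection. Aged mice were randomized at 21 months of age and received, once a week for 8 weeks at 12 mg/kg, either the anti-PD-1 antibody RMP1-14 (aged aPD1ab) or its isotype control, the IgG2a antibody 2A3 (aged IgG2a). The titles of the aPD1ab samples give 47 days instead. No young group received the control antibody, so age and injection cannot be told apart between young and aged IgG2a mice. The labels hold 5 mice per group. The count table names its columns by other numbers than the labels do, and 13 of its 15 columns could be tied to a group by the numbers printed beside the points of the study's principal component plot: 5 young, 4 aged IgG2a and 4 aged aPD1ab libraries. They are numbered below in column order within a group.

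Matrix metalloproteases are zinc proteases made as inactive proenzymes. Some are secreted and others are anchored in the cell membrane, and together they cleave collagens, gelatins, laminins and many shed surface proteins. ADAMTS proteases are secreted relatives with thrombospondin repeats that mostly cut proteoglycans such as versican and aggrecan or process procollagens. The TIMP proteins bind the active site of these enzymes. TIMP-3 is the one that stays bound to matrix and that also inhibits ADAM and ADAMTS enzymes, and TIMP-2 serves with the membrane enzyme MMP-14 in the activation of proMMP-2. In the glomerulus, turnover of the basement membrane and of the mesangial matrix depends on this balance.

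Aged IgG2a library 1 stood apart from the other 3 of its group: on the first principal component of 16330 genes (40.7% of the variance) it lay at -16.4, against 71.6 to 84.2 for the others and -41.4 to -24.6 for the young libraries. Results of the comparisons that use this group are therefore given with and without it. Aged aPD1ab library 2 also lay apart from its group on this component, at -64.9 against -13.9 to 10.9. Leaving it out gave no call in the antibody comparison and added calls of Timp3, Timp2, Adamts15 and Adamts4 against young mice. The label was then checked. The markers of podocytes were above 3 counts in every group, but their summed level was 871 to 1412 CPM (counts scaled to library size, with TMM factors) in young, 522 to 722 in aged IgG2a and 266 to 857 in aged aPD1ab libraries, while markers of the proximal tubule summed to 9565 to 14640, 1249 to 6995 and 7075 to 20680 CPM. RNA of several cell types was therefore present, and in such bulk samples fewer cells of a type and less RNA per cell cannot be told apart.

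**Figure D1:**
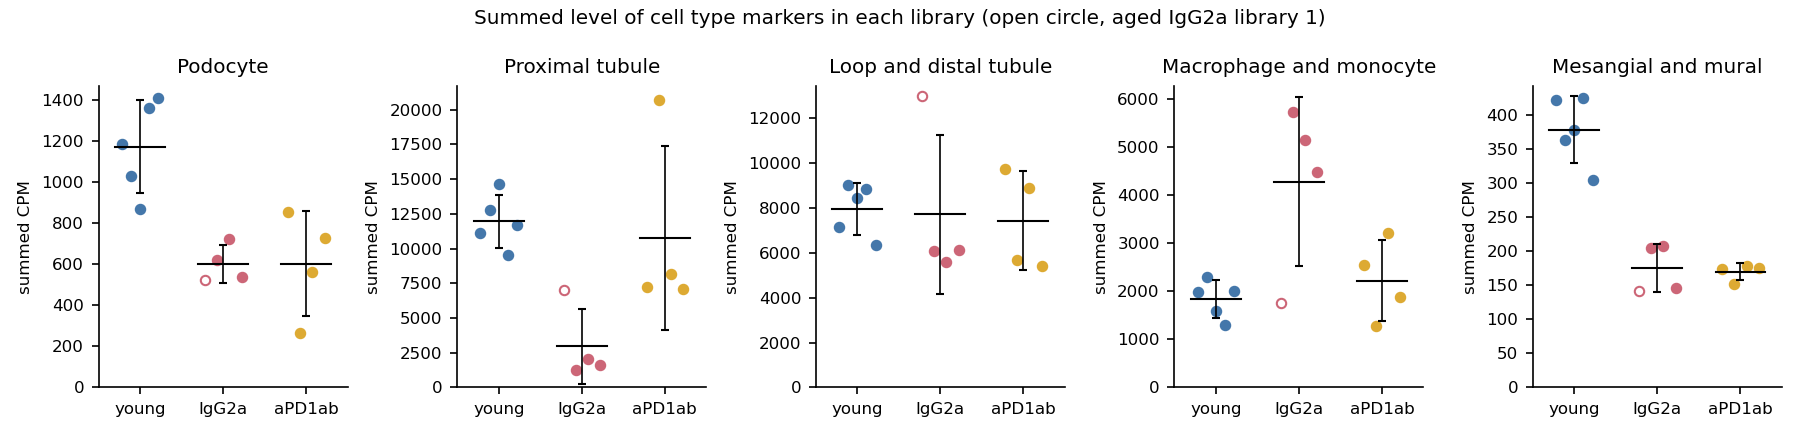
Summed CPM of the markers of 5 cell classes (y axes, linear) in each of the 13 libraries by group; points are libraries, horizontal lines means, bars SD, and the open circle is aged IgG2a library 1. The 3 other aged IgG2a libraries held 4489 to 5729 CPM of macrophage markers, above all young libraries (1303 to 2304), and the least proximal tubule markers.

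Macrophage and proximal tubule markers moved with the groups and are set beside the results that they move with. Without library 1, all 7 macrophage markers were called higher and all 8 proximal tubule markers lower in aged IgG2a than in young mice. With it, 6 of 7 were called higher and 8 of 8 lower. Podocyte markers were lower for 6 of 8 and higher for 1, and mesangial and mural markers were lower for 4 of 7, with either set of libraries. No marker of these 4 lists was at or under 3 counts throughout a group. Depth was 19912969 to 32717100 counts per library.

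For 4 metalloproteases the bases before the start site are shown. Mmp13 and Mmp12 are the abundant secreted enzymes and neighbours in the gene cluster on chromosome 9, and Mmp14 and Mmp15 are membrane enzymes that moved in opposite directions with age. Sequences are those of RefSeq on GRCm38.p6, all from the plus strand, 5′ to 3′. Each is the stretch of 100 bases nearest the start that no GENCODE transcript of the gene covers, at chr9:7272414-7272513, chr9:7344281-7344380, chr14:54431498-54431597 and chr8:95352168-95352267. Capitals mark matches to 3 short motifs searched on both strands: the AP-1 site TGANTCA, the GC box GGGCGG and the TATA box TATAAA. No marked match overlaps another.
Mmp13: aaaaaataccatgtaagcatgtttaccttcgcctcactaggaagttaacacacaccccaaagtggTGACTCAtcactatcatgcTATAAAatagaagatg
Mmp12: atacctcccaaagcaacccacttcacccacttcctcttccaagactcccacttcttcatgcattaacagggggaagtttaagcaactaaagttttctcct
Mmp14: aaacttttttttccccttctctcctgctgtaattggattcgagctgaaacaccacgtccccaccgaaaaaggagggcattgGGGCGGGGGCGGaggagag
Mmp15: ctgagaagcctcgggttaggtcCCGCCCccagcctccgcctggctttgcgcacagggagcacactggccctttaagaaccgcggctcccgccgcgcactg

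The Mmp13 stretch held an AP-1 site 35 bases and a TATA box 16 bases before the start, Mmp14 held 2 adjoining GC boxes at 19 and 13 bases, and Mmp15 held a GC box at 106 bases. Over the 250 bases before the start, the AP-1 letters were found for 7 of the 31 genes that had a window (22.6%) and for 7.82% of all 27025 gene symbols in the table. The 7 were Mmp1b, Mmp3, Mmp7, Mmp10, Mmp12 (in the other of its 2 windows), Mmp13 and Mmp20, all on chromosome 9. GC boxes were found for 16 of the 31 (51.6%, against 35.4%) and TATA boxes for 8 (25.8%, against 14.3%). A match describes letters and is not a binding site.

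Per kilobase of exon, Timp3 was the most abundant of the 45 genes, at 98.3 ± 11.3 CPM per kb in young (SD, n = 5), 40.8 ± 16.4 in aged IgG2a (n = 4) and 62.7 ± 24.0 in aged aPD1ab mice (n = 4). Mmp13, the collagenase of bone and of remodelling tissue, followed at 58.3 ± 16.1, 56.4 ± 11.1 and 45.8 ± 25.4 CPM per kb. Timp2 stood at 21.0 ± 2.9, 37.6 ± 12.0 and 25.8 ± 7.1 CPM per kb, and Adamts1, a versican-cutting protease, at 22.7 ± 3.3, 16.1 ± 7.7 and 25.0 ± 9.2. The next were Mmp12, the macrophage elastase, with a mean of 12.4 CPM per kb over the 13 libraries, Mmp14 with 7.13, Adamts10 with 4.76, Adamts5 with 3.01 and Mmp2 with 2.34. The order of neighbours was not firm: Timp2 lay below Adamts1 in young mice and above it in aged IgG2a mice, with overlapping SDs for young. Another 15 genes did not pass the low-count filter in any of the 3 comparisons: Adamts13, Adamts17, Adamts18, Adamts19, Adamts20, Mmp1b, Mmp3, Mmp7, Mmp10, Mmp16, Mmp20, Mmp21, Mmp24, Mmp27 and Timp4. Of these, Adamts18, Adamts19 and Mmp1b had no count in any library, where 3 counts would have been 0.0917 to 0.151 CPM before TMM scaling.

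**Figure D2:**
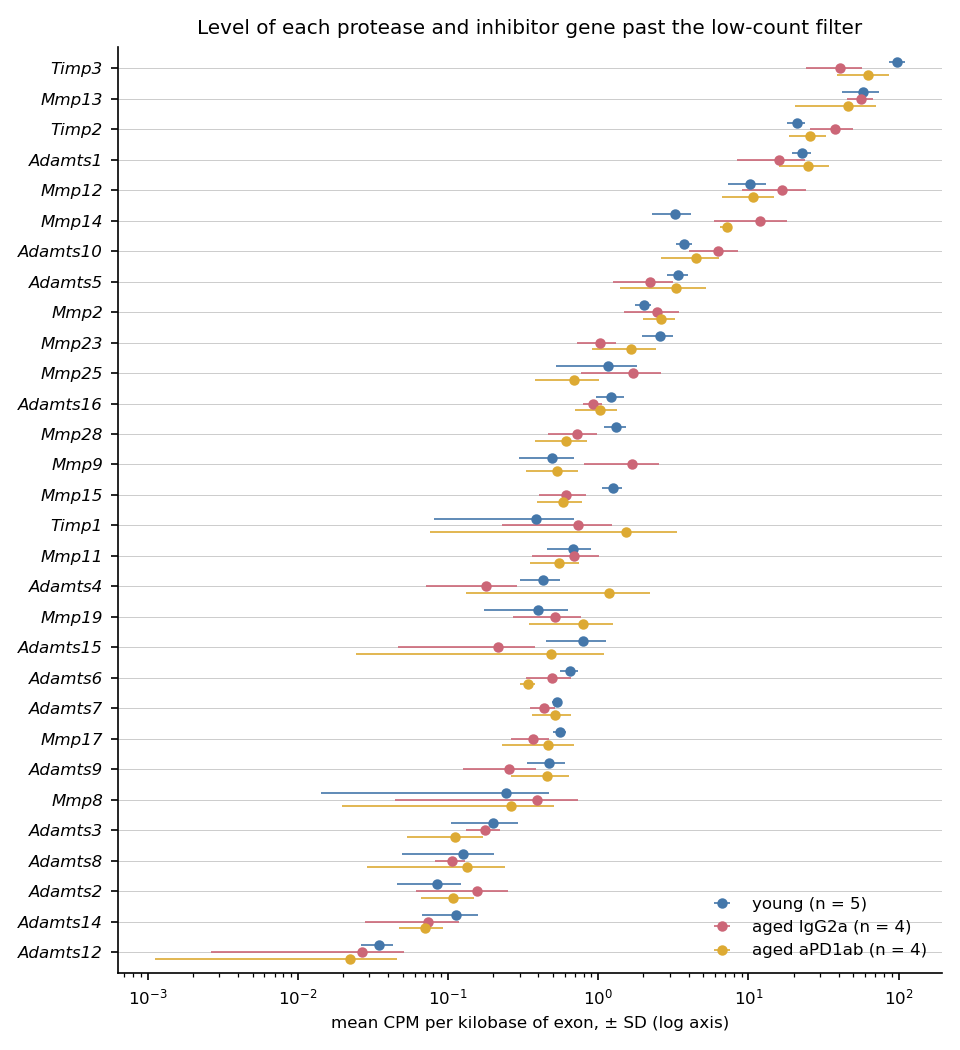
Mean level (x axis, CPM per kilobase of exon, log axis) of the 30 genes that passed the filter, with 1 point per group and bars of SD (lower bars are shortened where the SD reaches the mean). Levels run from Timp3 at the top to Adamts12 at the bottom, and Mmp14 is the abundant gene with the widest gap between young and aged IgG2a.

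The aged IgG2a against young comparison asks what differed between uninjected young mice and aged mice given the control antibody, written "with age" from here on although age and injection cannot be told apart. Mmp14, Mmp9, Timp2 and Adamts10 were higher in aged mice, and Timp3, Mmp23, Mmp15, Adamts15 and Mmp28 were lower. The fold changes ran from 1.74 to 3.89. These 4 and 5 of the 30 genes tested (13.3% and 16.7%) compare with 9.05% of all 15953 genes called higher and 8.38% called lower at an adjusted p under 0.05 (edgeR quasi-likelihood test, Benjamini-Hochberg over all genes tested). The median log2 fold change was -0.19 over the 30 genes and 0.04 over all genes. Without aged IgG2a library 1, Mmp12 and Adamts2 joined those that rose and Adamts9 those that fell, giving 6 and 6 of 31 (19.4% each), against 22.1% and 23.5% of all 16216 genes, with medians of -0.21 and -0.01.

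The aged aPD1ab against aged IgG2a comparison asks what the anti-PD-1 antibody did in aged mice. Over all libraries none of the 28 genes tested passed the threshold in the edgeR fit of the 2 groups. Nor did any of the 15530 genes (0% higher and 0% lower). At an unadjusted p under 0.05 there were 3 of the 28 and 4341 of all genes. The lowest adjusted p was 0.109 among the 28, for Adamts4 and Mmp9, and 0.102 among all genes. DESeq2 called Adamts4 higher and Mmp9 lower. The limma voom fit called 3 higher (Adamts4, Adamts9 and Timp3) and 6 lower (Mmp9, Mmp12, Mmp14, Mmp25, Timp2 and Adamts10). How many of all genes these tools called was not counted, so these counts have no background share. Without aged IgG2a library 1, edgeR called Adamts4 and Adamts9 higher and Mmp9, Mmp25, Mmp14, Mmp12, Timp2 and Adamts6 lower in aPD1ab mice. Those are 7.14% and 21.4% of 28, against 17.1% of 15770 genes called higher and 13.2% called lower. In the edgeR fits of 2 groups these 8 calls rest on leaving out 1 library. With all libraries kept, 1 edgeR fit of the 3 groups called Adamts4 higher (log2 fold change 2.68, adjusted p = 0.0198). It also called Mmp9 lower (-1.65, adjusted p = 0.0328), and its share of all genes was not counted. Without library 1 the medians of the 28 and of all genes were 0.03 and 0.01.

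Between aged aPD1ab and young mice, which differ in both age and antibody, Mmp14 was higher and Adamts6, Mmp15 and Mmp28 were lower. That is 1 and 3 of 30 genes (3.33% and 10%), against 12.4% and 9.97% of 15986 genes, with medians of -0.03 and 0.02. The 3 comparisons share libraries: a low value in an aged IgG2a library enters the age comparison and the antibody comparison with opposite signs.

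**Figure D3:**
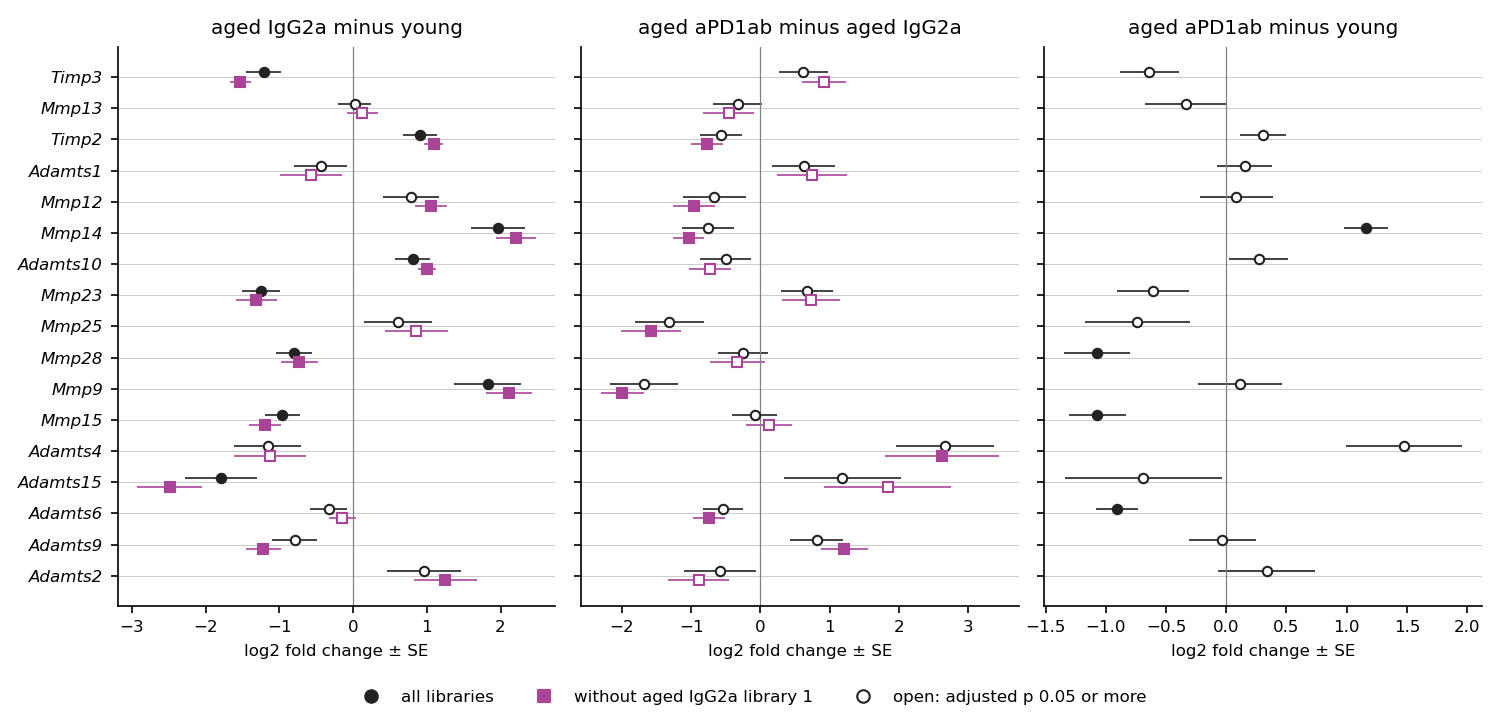
Log2 fold change ± SE (x axes) of the 17 genes described by library, in the 3 comparisons; black circles use all libraries, purple squares leave out aged IgG2a library 1, and filled symbols have an adjusted p under 0.05. In the antibody comparison no black symbol is filled and 8 purple ones are.

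The inhibitors moved in opposite directions with age. Timp3 stood at 745, 816, 919, 843 and 679 CPM in the young libraries, at 529, 238, 304 and 258 in aged IgG2a and at 448, 742, 280 and 571 in aged aPD1ab. Every aged IgG2a library lay below every young one, and the aPD1ab libraries spread over both ranges. With age the log2 fold change was -1.21 ± 0.24 (SE, adjusted p = 0.0154), or -1.53 ± 0.14 without library 1 (adjusted p = 2.14e-05). Without aged IgG2a library 3 it was -1.18 and just missed the threshold (adjusted p = 0.0558). In aPD1ab against IgG2a mice it was 0.62 ± 0.36 (adjusted p = 0.276), and 0.92 ± 0.32 without library 1 (adjusted p = 0.0613). Over all libraries limma voom called Timp3 higher with the antibody (0.77, adjusted p = 0.0309). Without library 1, DESeq2 also called it (adjusted p = 0.0188). Against young mice aPD1ab gave -0.64 ± 0.25 (adjusted p = 0.0893), or -0.87 without aPD1ab library 2 (adjusted p = 0.0201). DESeq2 and limma voom called this difference over all libraries (adjusted p = 0.0354 and 0.0271). Exons of Syn3 on the other strand cover 21.3% of the Timp3 exons. Syn3 itself was at 5.43 ± 0.64 CPM in young and 2.63 ± 1.70 in aged IgG2a mice, far below Timp3.

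Timp2 stood at 82.0, 77.1, 67.4, 85.0 and 98.5 CPM in young, at 82.6, 183, 180 and 141 in aged IgG2a and at 116, 59.0, 116 and 111 in aged aPD1ab libraries. Library 1 of the IgG2a group sat inside the young range and the other 3 above it. Its log2 change with age was 0.91 ± 0.23 (adjusted p = 0.0279), and 1.09 ± 0.13 without library 1 (adjusted p = 8.81e-05). Leaving out any of young libraries 1 to 4 or aged IgG2a libraries 2 to 4 lost this call. With the antibody it was -0.57 ± 0.30 (adjusted p = 0.243) and, without library 1, -0.78 ± 0.23 (adjusted p = 0.0378). Between aPD1ab and young mice it was 0.30 ± 0.19 (adjusted p = 0.279), or 0.49 without aPD1ab library 2 (adjusted p = 0.0158). Of the summed TIMP CPM, Timp3 made up 87.3 to 93.1% in young libraries, 86.4% in aged IgG2a library 1 and 56.4 to 64.6% in the other 3, and 70.5 to 92.6% with aPD1ab. Timp1, the inducible inhibitor, was low, at 0 to 1.13 CPM in 12 libraries and at 3.71 CPM in aged aPD1ab library 4, and passed the threshold in none of the 3 comparisons.

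**Figure D4:**
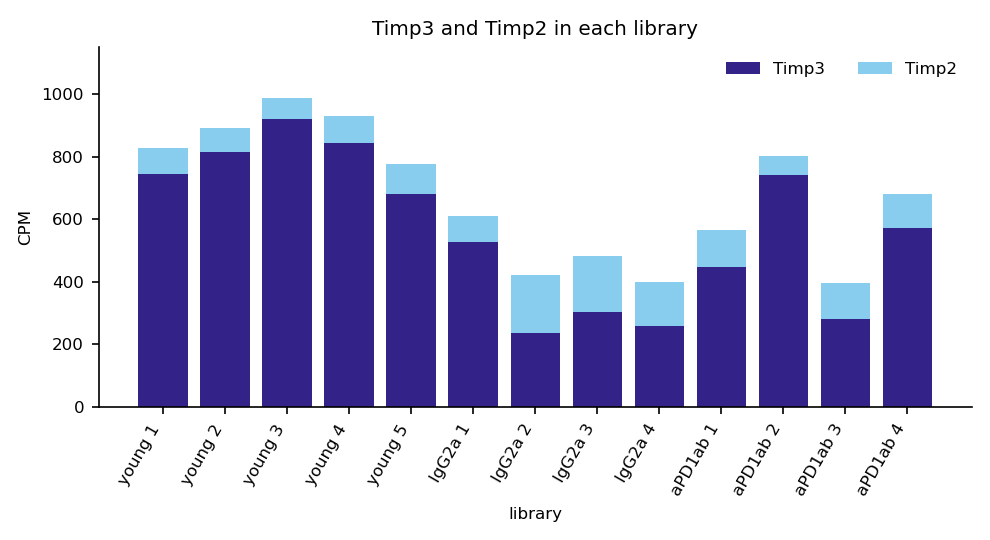
CPM of Timp3 (dark) and Timp2 (light) stacked for each of the 13 libraries (x axis, library; y axis, CPM). The stack is lowest in aged IgG2a libraries 2 to 4 and aged aPD1ab library 3, and the light share is widest in aged IgG2a libraries 2 to 4.

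Mmp14 and Mmp15 encode related membrane enzymes, and with age Mmp14 rose and Mmp15 fell. Mmp14, a collagenase and the activator of proMMP-2, stood at 17.8, 28.9, 17.2, 14.5 and 17.9 CPM in young, at 28.1, 105, 98.1 and 54.5 in aged IgG2a and at 38.6, 47.8, 40.7 and 43.8 in aged aPD1ab libraries. All aPD1ab libraries lay above all young ones, whereas aged IgG2a library 1 lay within the young range. With age the log2 change was 1.96 ± 0.37 (adjusted p = 0.0131) and passed with any single library left out, and it was 2.21 ± 0.27 without library 1. Against young mice aPD1ab gave 1.16 ± 0.18 (adjusted p = 0.00421), which also passed with any single library left out. Between the aged groups it was -0.76 ± 0.37 (adjusted p = 0.214), and -1.03 ± 0.22 without library 1 (adjusted p = 0.0138).

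Mmp15, a related membrane enzyme of epithelia, stood at 6.34, 6.80, 8.25, 5.43 and 6.83 CPM in young, at 4.66, 2.21, 2.53 and 3.87 in aged IgG2a and at 4.36, 2.12, 2.49 and 3.68 in aged aPD1ab libraries. Neither aged group overlapped the young group, and the aged groups covered the same range. Its log2 fold change was -0.96 ± 0.23 with age (adjusted p = 0.0258, and 0.00135 without aged IgG2a library 1) and -1.07 ± 0.23 in aPD1ab against young mice (adjusted p = 0.0114). The first of these fell to an adjusted p between 0.0504 and 0.0806 without young library 1, 2, 3 or 5 or aged IgG2a library 2 or 3. Between the aged groups it was -0.08 ± 0.32 (adjusted p = 0.895). Mmp25, the leukolysin of neutrophils, is held in the membrane by a lipid anchor. It stood at 5.26, 11.8, 4.12, 3.12 and 6.56 CPM in young, at 3.78, 15.0, 10.7 and 6.49 in aged IgG2a and at 3.48, 1.42, 4.48 and 5.31 in aged aPD1ab libraries. The young and aPD1ab ranges overlapped, and the edgeR call came in the antibody comparison without library 1 (-1.58 ± 0.44 on the log2 scale, adjusted p = 0.0297, against -1.32 ± 0.50 and 0.138 with it). The neutrophil markers summed to 1.07 to 6.56 CPM in all libraries, with Ly6g at 0 in the young and aged IgG2a groups. Mmp17, the other lipid-anchored enzyme, was at 3.17 to 4.22 CPM in young and 1.66 to 3.31 in aged IgG2a libraries, with a log2 fold change of -0.52 ± 0.22 (adjusted p = 0.115).

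Of the secreted gelatinases, Mmp9 carried the change. It stood at 2.28, 1.80, 0.912, 1.21 and 2.54 CPM in young, at 1.79, 5.39, 8.72 and 7.87 in aged IgG2a and at 1.64, 1.22, 2.89 and 1.80 in aged aPD1ab libraries, from 23 to 162 counts each. Only aged IgG2a libraries 2 to 4 stood above the other 10. On the log2 scale the change was 1.83 ± 0.46 with age (adjusted p = 0.0280) and 2.12 ± 0.31 without library 1, and the first was lost without any of young libraries 1 to 4 or aged IgG2a libraries 2 to 4. With the antibody it was -1.68 ± 0.49 (adjusted p = 0.109), and -1.99 ± 0.32 without library 1 (adjusted p = 0.00752). Mmp2, the other gelatinase, was at 5.88 to 7.97 CPM in young, 4.97 to 12.2 in aged IgG2a and 6.29 to 11.5 in aged aPD1ab libraries. It had no edgeR call in the 3 comparisons over all libraries, though limma voom called it higher in each aged group than in young mice.

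In edgeR, neither of the abundant secreted enzymes Mmp13 and Mmp12 passed over all libraries, and Mmp12 passed without aged IgG2a library 1. Over all libraries limma voom called Mmp12 higher with age (0.94, adjusted p = 0.00361) and lower with the antibody (-0.85, adjusted p = 0.0268). The difference between these 2 genes was not tested. Mmp13 stood at 159, 189, 113, 112 and 206 CPM in young, at 112, 170, 177 and 143 in aged IgG2a and at 218, 59.3, 115 and 96.7 in aged aPD1ab libraries. The 3 groups overlapped throughout, and the log2 fold changes were 0.02 ± 0.22 with age (adjusted p = 0.951, and 0.13 ± 0.21 without library 1), -0.33 ± 0.36 with the antibody (adjusted p = 0.570) and -0.34 ± 0.34 between aPD1ab and young mice (adjusted p = 0.501). Mmp12 stood at 87.8, 84.4, 55.6, 47.7 and 95.2 CPM in young, at 38.9, 151, 139 and 155 in aged IgG2a and at 93.5, 35.2, 101 and 82.3 in aged aPD1ab libraries. Here aged IgG2a library 1 was below every young library and the other 3 above all of them. The log2 fold change with age was 0.78 ± 0.38 (adjusted p = 0.162), or 1.06 ± 0.21 without library 1 (adjusted p = 0.00321). With the antibody it was -0.66 ± 0.46 (adjusted p = 0.357), or -0.96 ± 0.31 without library 1 (adjusted p = 0.0467).

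The macrophage markers followed the same libraries. They summed to 1765 CPM in aged IgG2a library 1 and to 5729, 5148 and 4489 CPM in libraries 2 to 4, and to 2542, 1270, 3210 and 1873 CPM in aPD1ab libraries 1 to 4. Young library 4 had the least macrophage RNA of its group (1303 CPM) and the least Mmp12, Mmp13 and Mmp14. Its Timp2 and Mmp9, at 85.0 and 1.21 CPM, were not the least, which were 67.4 and 0.912 CPM in library 3. The libraries with the least macrophage RNA in the aged groups, IgG2a 1 and aPD1ab 2, also had the least Mmp12, Mmp13, Timp2 and Mmp9 of their groups. Mmp14 was lowest in IgG2a 1 but highest of its group in aPD1ab 2, at 47.8 CPM against 38.6 to 43.8. In the aged groups these libraries had the most proximal tubule markers. They summed to 6995 CPM in IgG2a library 1 against 1249 to 2033 in libraries 2 to 4. In aPD1ab library 2 they summed to 20680 CPM against 7075 to 8141 in the others. The young group differed, as its library 4 also had the least proximal tubule markers (9565 CPM). Adamts10 and Mmp25 were also lowest in IgG2a 1, aPD1ab 2 and young library 4 of their groups. There they stood at 26.4, 19.8 and 26.6 CPM, and at 3.78, 1.42 and 3.12 CPM. Timp3, Adamts15 and Adamts9 were highest in the library with the most proximal tubule RNA of each group. These were young library 3 (14640 CPM), IgG2a 1 and aPD1ab 2. Mmp15, Mmp23 and Mmp28 were not highest in all of these libraries. The part of these cell types in the changes of Mmp14, Mmp9, Mmp12, Mmp25, Timp2, Timp3, Adamts10, Adamts15 and Adamts9 was not tested.

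Mmp23 and Mmp28 fell with age. Mmp23 stood at 7.21, 4.36, 4.84, 6.14 and 7.53 CPM in young, at 2.72, 2.98, 2.48 and 1.38 in aged IgG2a and at 4.04, 2.16, 3.06 and 6.26 in aged aPD1ab libraries. Aged IgG2a and young did not overlap, and here library 1 lay with its group. The log2 fold change was -1.25 ± 0.26 (adjusted p = 0.0167), or -1.31 ± 0.28 without library 1 (adjusted p = 0.00329). It missed the threshold without aged IgG2a library 3 (adjusted p = 0.0536). Mmp28, or epilysin, the enzyme of resting epithelia, stood at 5.22, 3.91, 4.92, 6.31 and 5.07 CPM in young, at 2.37, 2.33, 4.31 and 2.21 in aged IgG2a and at 3.36, 2.40, 1.19 and 2.53 in aged aPD1ab libraries. Only aged IgG2a library 3 reached the young range. The log2 fold changes were -0.80 ± 0.24 with age (adjusted p = 0.0483, and 0.0373 without library 1), kept when library 1 or 3 of aged IgG2a was left out and lost without any other single library, and -1.07 ± 0.27 in aPD1ab against young mice (adjusted p = 0.0197). Exons of 1700020L24Rik on the other strand cover 12% of the Mmp28 exons.

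**Figure D5:**
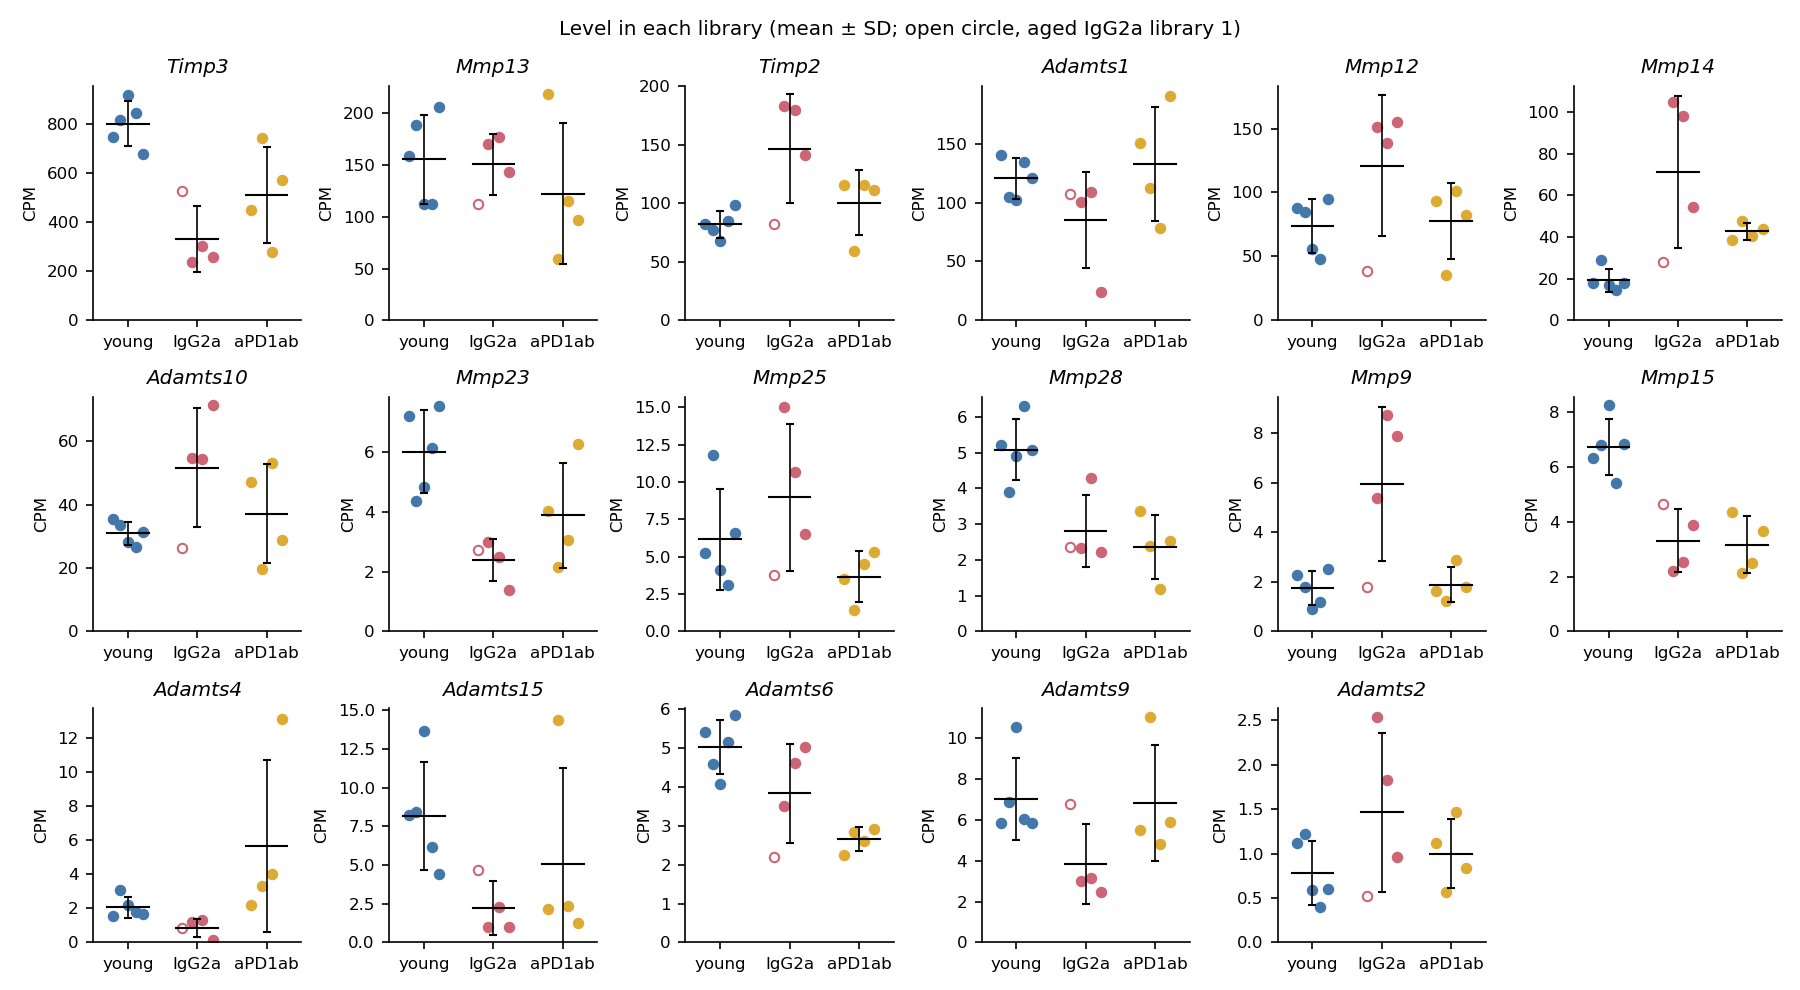
CPM (y axes, linear from 0) in each of the 13 libraries for the 17 genes described by library; points are libraries, lines means, bars SD, and the open circle is aged IgG2a library 1. For Mmp14, Mmp9, Mmp12, Timp2 and Adamts10 the open circle is the lowest of the aged IgG2a points and lies in or under the young range.

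Among the ADAMTS proteases that cut proteoglycans, Adamts15 fell with age and Adamts1 did not pass. Adamts1 stood at 141, 105, 102, 135 and 121 CPM in young, at 107, 100, 109 and 24.2 in aged IgG2a and at 150, 112, 78.1 and 191 in aged aPD1ab libraries. The groups overlapped, with aged IgG2a library 4 far below the rest, and the log2 fold changes were -0.44 ± 0.36 with age (adjusted p = 0.398) and 0.63 ± 0.45 with the antibody (adjusted p = 0.379), or -0.57 ± 0.42 and 0.74 ± 0.51 without library 1, neither called. Adamts5, the main aggrecan-cutting enzyme of cartilage, was at 31.3 to 45.4 CPM in young, 11.9 to 36.9 in aged IgG2a and 16.3 to 59.1 in aged aPD1ab libraries, with no call. Adamts15 stood at 8.20, 8.39, 13.7, 6.17 and 4.40 CPM in young, at 4.66, 0.981, 2.26 and 0.967 in aged IgG2a and at 2.16, 14.4, 2.38 and 1.26 in aged aPD1ab libraries. Its log2 fold change with age was -1.79 ± 0.49 (adjusted p = 0.0363), or -2.48 ± 0.44 without library 1 (adjusted p = 0.00147). The call held without young library 5 and was lost without any other young library or without aged IgG2a library 2, 3 or 4. With aPD1ab, library 2 alone was above the young mean and the other 3 were below every young library. Between aPD1ab and young mice the log2 fold change was -0.69 ± 0.65 (adjusted p = 0.473), or -2.09 without aPD1ab library 2 (adjusted p = 0.00716). In limma voom Adamts15 was called lower over all libraries of this comparison (-1.92, adjusted p = 0.0257).

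Adamts4, the inducible aggrecan-cutting enzyme, stood at 1.57, 3.05, 2.22, 1.81 and 1.64 CPM in young, at 0.849, 1.18, 1.29 and 0.138 in aged IgG2a and at 2.20, 3.29, 4.02 and 13.1 in aged aPD1ab libraries. Every aPD1ab library was above every aged IgG2a library, but counts ran from 2 to 467, and aPD1ab library 4 alone held more than the rest of its group together. The log2 fold change with the antibody was 2.67 ± 0.71 (adjusted p = 0.109), and 2.63 ± 0.82 without aged IgG2a library 1 (adjusted p = 0.0439). With age it was -1.16 ± 0.46 (adjusted p = 0.0998), though DESeq2 called the gene lower over all libraries (adjusted p = 0.0318). Between aPD1ab and young mice the log2 fold change was 1.48 ± 0.48 (adjusted p = 0.0503). This became 1.74 without aPD1ab library 1 (adjusted p = 0.0220) and 1.67 without aPD1ab library 2 (adjusted p = 0.0346). DESeq2 and limma voom called this difference over all libraries (adjusted p = 0.0116 and 0.0318).

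Adamts9, which trims versican and is needed for cilia, stood at 5.84, 6.87, 10.6, 6.07 and 5.86 CPM in young, at 6.77, 3.02, 3.18 and 2.49 in aged IgG2a and at 5.52, 11.03, 4.82 and 5.90 in aged aPD1ab libraries. Aged IgG2a libraries 2 to 4 lay below all 10 others. With age the log2 fold change was -0.79 ± 0.31 (adjusted p = 0.0970), or -1.22 ± 0.24 without library 1 (adjusted p = 0.00204). With the antibody it was 0.81 ± 0.39 (adjusted p = 0.205), or 1.22 ± 0.34 without library 1 (adjusted p = 0.0298). Over all libraries DESeq2 and limma voom called Adamts9 lower with age (adjusted p = 0.0480 and 0.00671). The latter also called it higher with the antibody (adjusted p = 0.0146). Exons of A730049H05Rik on the other strand cover 9.18% of its exons.

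Of the ADAMTS proteases tied to microfibrils and collagen, Adamts10 was called with age and Adamts6 between aPD1ab and young mice over all libraries. Adamts10, which binds fibrillin, stood at 35.3, 33.5, 28.3, 26.6 and 31.3 CPM in young, at 26.4, 54.6, 54.4 and 71.3 in aged IgG2a and at 47.1, 19.8, 53.0 and 28.8 in aged aPD1ab libraries. Aged IgG2a library 1 was again the lowest of its group, below every young library. The log2 fold change with age was 0.81 ± 0.24 (adjusted p = 0.0469), which held with library 1 of aged IgG2a left out (1.01 ± 0.12, adjusted p = 9.31e-05) and with no other single library left out. With the antibody it was -0.50 ± 0.37 (adjusted p = 0.383), or -0.73 ± 0.31 without library 1 (adjusted p = 0.107). Over all libraries limma voom called Adamts10 lower with the antibody (-0.76, adjusted p = 0.0335). Adamts6, the closest relative of Adamts10, stood at 5.43, 4.61, 4.08, 5.16 and 5.86 CPM in young, at 2.20, 3.51, 4.63 and 5.04 in aged IgG2a and at 2.24, 2.85, 2.61 and 2.92 in aged aPD1ab libraries. All aPD1ab libraries were below all young ones, with a log2 fold change of -0.91 ± 0.17 (adjusted p = 0.00727) that passed with any single library left out. With age it was -0.33 ± 0.25 (adjusted p = 0.359), and with the antibody -0.54 ± 0.30 (adjusted p = 0.256), or -0.74 ± 0.23 without library 1 (adjusted p = 0.0415). Adamts2, a procollagen N-proteinase, was low, at 1.12, 1.22, 0.595, 0.402 and 0.597 CPM in young, at 0.527, 2.53, 1.83 and 0.967 in aged IgG2a and at 1.12, 0.570, 1.47 and 0.843 in aged aPD1ab libraries, from 12 to 62 counts each. In edgeR, Adamts2 was called with age only without library 1 (log2 fold change 1.25 ± 0.43, adjusted p = 0.0345, against 0.96 ± 0.50 and 0.192 with it). Over all libraries limma voom called it (1.10, adjusted p = 0.0410).

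The other genes that passed the filter had no call in these fits. They were Adamts3, Adamts5, Adamts7, Adamts8, Adamts12, Adamts14, Adamts16, Mmp2, Mmp8, Mmp11, Mmp17, Mmp19 and Timp1. Mmp8, the collagenase of neutrophils, was at 0.0879 to 2.07 CPM, and Mmp19 at 0.402 to 4.19 CPM, with exons of Tmem198b covering 22.3% of its own.

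Around these enzymes, 5 lists of related genes were read in the same fits. The other inhibitors and clearance receptors gave 1 gene higher and 3 lower with age of 7 tested, where 9.05% and 8.38% of all genes were called. Without aged IgG2a library 1 the counts were again 1 and 3, against 22.1% and 23.5% of all genes. Lrp1, the receptor that clears proteases and their complexes with TIMPs, rose from 122 ± 14.9 to 344 ± 128 CPM (log2 fold change 1.57 ± 0.27, adjusted p = 0.0101). Reck, a membrane-bound inhibitor of MMP-14 and MMP-9, fell from 7.74 ± 0.40 to 4.75 ± 0.53 CPM (-0.64 ± 0.13, adjusted p = 0.0168), and was also lower in aPD1ab than in young mice (-0.85 ± 0.22, adjusted p = 0.0201). Tfpi2 and Pzp, 2 further protease inhibitors, fell by 1.88 and 2.15 on the log2 scale. The median of this list was -0.01, against 0.04 over all genes.

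The activators and partners gave 1 higher and 4 lower of 11 tested with age, against the same 9.05% and 8.38% of all genes, and 3 higher and 5 lower without aged IgG2a library 1. Plat, the tissue plasminogen activator, fell from 336 ± 98.0 to 173 ± 20.6 CPM (log2 fold change -0.90 ± 0.21, adjusted p = 0.0248), and Furin and Pcsk5, convertases that remove propeptides, fell by 0.36 and 1.01 on the log2 scale. Lcn2, the partner that stabilizes MMP-9, rose from 4.78 ± 0.67 to 10.9 ± 1.9 CPM (1.26 ± 0.16, adjusted p = 0.00375). The list's median was -0.19. Of the ADAM proteases 1 of 8 rose, Adam17, the sheddase of TNF that TIMP-3 inhibits (0.59 ± 0.17, adjusted p = 0.0447), with a median of 0.40. Without aged IgG2a library 1, 5 of the 8 were higher (Adam10, Adam15, Adam17, Adam19 and Adam33, by 0.40 to 1.20 on the log2 scale) and Adam12 was lower. Of the ADAMTS-like genes 1 of 7 fell, Thsd4 (-0.77 ± 0.17, adjusted p = 0.0199), with a median of -0.54, and 3 of 7 fell without library 1 (Thsd4, Adamtsl2 and Adamtsl3). Of the proteoglycans and other substrates 1 of 8 rose, the collagen-binding proteoglycan Dcn (1.83 ± 0.41, adjusted p = 0.0209), with a median of 0.48. Without library 1, Dcn, Fn1 and Vwf were higher and Eln lower, of 9 tested, where 22.1% of all genes were called higher and 23.5% lower. Dcn is also in the list of fibroblast markers.

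With the antibody none of the tested genes of these 5 lists passed over all libraries. Their medians were -0.55 for ADAM proteases, -0.26 for ADAMTS-like genes, -0.17 for other inhibitors, 0.11 for activators and -0.64 for substrates, against -0.01 over all genes. Without aged IgG2a library 1, 4 of 8 ADAM proteases were lower in aPD1ab mice, among them Adam17 (-0.78 ± 0.13, adjusted p = 0.00761) and Adam10 (-0.95 ± 0.11, adjusted p = 0.00640), as were 3 of 8 substrates, 1 of 7 other inhibitors, Lrp1 (-1.22 ± 0.25, adjusted p = 0.0118), and 1 of 11 activators, Cd44 (-1.12 ± 0.17, adjusted p = 0.00737). Tfpi2 and Bsg were higher, by 2.81 ± 0.66 and 0.70 ± 0.14 on the log2 scale. Of all genes in that fit, 17.1% were called higher and 13.2% lower. In aPD1ab against young mice 3 of 7 ADAMTS-like genes were lower, against 9.97% of all genes: Thsd4 (4.06 ± 0.73 against 11.1 ± 0.77 CPM, log2 fold change -1.45 ± 0.15, adjusted p = 0.00196), Adamtsl1 and Adamtsl2.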

How the data were processed

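Libraries were made by the study with a TruSeq kit from MACS-sorted podocyte fractions. Per the labels, HISAT2 and featureCounts were used with mm10/GRCm38; versions and the strand setting are not given in the sources used here. The authors deposited counts, whole numbers per Ensembl gene without normalization. Of counts from 1 to 20, 72.3% were even, and the cause was not tested. Symbols, positions and exon lengths came from GENCODE M21 (GRCm38), found for 45143 genes. The 2 columns that could not be tied to a group were not used. Each column was given a group, not a mouse. The gene families and the gene lists were chosen with earlier results of these data known.

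Every comparison had its own fit of its 2 groups in edgeR 4.0.16 (R 4.3.3; TMM, filterByExpr, robust quasi-likelihood test), and p was adjusted by Benjamini-Hochberg over all genes tested, with a threshold of 0.05. Scripts were tested on simulated counts, where DESeq2 made more false calls than edgeR and edgeR missed more of the changed genes in the antibody comparison than in the others. Alternatives used DESeq2 1.42.0, limma 3.58.1 (voom with quality weights), other scalings, no filter, 1 fit of 3 groups, a 2-fold threshold and each library left out. CPM are scaled by TMM over 13 libraries. A prior count of 2 entered the log2 CPM behind the principal components. Genes given library by library were all those called in any comparison over all libraries or with 1 aged IgG2a library left out, and the 5 most abundant per kilobase. Promoter bases are RefSeq's (GRCm38.p6). No window was found for Adamts4, Adamts5, Adamts6, Adamts7, Adamts8, Adamts10, Adamts15, Adamts16, Adamts19, Mmp2, Mmp9, Mmp16, Mmp17 and Mmp19. Floors of 3 counts cover counting error only.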

Additional observations from a re-analysis of the deposited data

Results flagged for a closer look

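In 9 of 51 sets of libraries (17 genes in 3 groups) a single library lay far from the others of its group. The cut-off flags about 1 in 20 sets when sets are independent. These sets share 13 libraries, and some genes were chosen because leaving out an aged IgG2a library gave a call. The 9 of 51 can therefore not be set against 1 in 20. In aged IgG2a library 1, Mmp12 was at 38.9 CPM against 138.5 to 155.3 in the other 3, and Adamts9 was at 6.77 CPM against 2.49 to 3.18. In aged IgG2a library 3, Mmp28 was at 4.31 CPM against 2.21 to 2.37. In aged IgG2a library 4, Adamts1 was at 24.2 CPM against 100.2 to 109. In aged aPD1ab library 2, Timp2 was at 59.0 CPM against 110.9 to 115.8, and Adamts15 was at 14.4 CPM against 1.26 to 2.38. In aged aPD1ab library 4, Adamts4 was at 13.1 CPM against 2.2 to 4.02. In the young group, Adamts9 was at 10.6 CPM in library 3 against 5.84 to 6.87, and Mmp14 was at 28.9 CPM in library 2 against 14.5 to 17.9.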

How the results depend on the processing

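The groups were made of different mice, so no paired analysis applied. With age, 4 genes were called higher and 5 lower. Library size alone gave 2 and 8, no low-count filter gave 3 lower, limma voom 7 higher, 1 fit of the 3 groups 3 lower, and a 2-fold threshold 2 and 3. Leaving out single libraries gave 1 to 6 higher and 1 to 6 lower. With the antibody, where edgeR called 0 and 0, DESeq2 and the 3-group fit each called 1 and 1 and voom 3 and 6. Leaving out single libraries gave 0 to 2 and 0 to 6, with calls only without aged IgG2a replicate 1. Without it, DESeq2 and the 3-group fit, both added after seeing the data, each called 3 and 6. For aPD1ab against young (1 and 3), upper-quartile factors, no filter and DESeq2 each gave 2 higher, voom 3 and 5, and single libraries left out 1 to 3 and 3 to 5. Library size alone moved the median of all genes to -0.38 with age, 0.24 with the antibody and -0.11 for the third comparison, and made the calls with age over all genes 331 higher and 3380 lower, against 1443 and 1337; for the third they were 856 and 1632, against 1984 and 1594. Members' counts under it are relative to that shift. The share of all genes called was not counted for DESeq2, voom, no filter, the 3-group fit or the 2-fold threshold. Nor was it for single libraries left out, except aged IgG2a replicate 1 in edgeR. Members' counts under these settings have no background to be set against.

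Directions turned only where a change was near 0. With age, Mmp13 ran from -0.07377 to 0.1374 with single libraries left out (below 0 without young replicate 3 or 4 or aged IgG2a replicate 2 or 3) and became -0.4275 with library size alone, -0.02125 with no filter and -0.0471 in the 3-group fit. In aPD1ab against young, with single libraries left out, Mmp12 ran from -0.06252 to 0.3276 (below 0 without young replicate 3 or 4 or aPD1ab replicate 1 or 3) and Adamts1 from -0.07482 (without aPD1ab replicate 4) to 0.3381. Mmp12 became -0.04231 with library size alone. The cause was not tested. Depth limits genes under about 1 CPM, where a library holds few counts.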
